A study of Mus musculus with 2 samples.

Results

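The lipoprotein lipase (Lpl) locus held 45 of the 34534 Ebf1 peaks mapped in mature 3T3-L1 adipocytes. Its members were selected on position alone, as the peaks of the Ebf1 list whose centre lay between 71300001 and 71500000 on chromosome 8 (mm9). The region itself was picked from this same list with its many peaks already known. Peak numbers, scores and widths are therefore a description here, with no test. The study profiled Ebf1 by ChIP-seq, the sequencing of DNA fragments pulled down with an antibody, in 3T3-L1 cells, a mouse fibroblast line that becomes fat-storing when given a hormonal mixture. Cells were fixed with 1% formaldehyde 10 days after that mixture, MDI, was added. The labels give 1 Ebf1 ChIP library and 1 library of whole cell extract made without antibody. The values described come from the Ebf1 library, the whole cell extract was not analysed here, and no value has a replicate error. A peak list holds no expression, so neither the adipocyte state of the cells nor the level of Lpl was checked here.

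Lipoprotein lipase is the secreted enzyme that splits the triglycerides of circulating lipoproteins at the capillary wall, so that fat cells can take up the fatty acids. It is folded in the endoplasmic reticulum with the help of Lmf1, carried across the endothelium by Gpihbp1 and inhibited by Angptl4. Its transcript is a classical marker of adipocyte differentiation and a known target of the nuclear receptor PPARγ. Ebf1 is a helix-loop-helix transcription factor with known roles in B cell and adipocyte development.

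Lpl occupies about 71.404 to 71.431 Mb of chromosome 8 in mm9, with its start at the lower coordinate. These positions are rounded to 1 kb and were not read from an annotation of that build, so distances below share that rounding. The span of 27 kb can be set beside the gene's length of 26378 bp in the RefSeq annotation of GRCm38. By gene order in that annotation, the closest protein-coding neighbours are Ints10, a subunit of the Integrator complex, before Lpl and Slc18a1, a vesicular monoamine transporter, after it. The lncRNA Gm51577 is listed between Ints10 and Lpl, and Gm32997 follows Lpl. Which members lie in exons, introns or the neighbouring genes was not analysed here.

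Each peak carries 2 deposited whole numbers of unstated meaning, called here the score, which ranged from 3 to 597 over the list, and the second value, which ranged from 0 to 15. A strong peak is one with a score of 55 or more, a threshold near the 90th percentile of the list. Peaks covered 16.4 kb of the 200 kb at Lpl. Of the 45 members, 5 were strong (11.1%), against 10.2% of the list. A score at or above the list's median of 13 was reached by 21 members (46.7%), against 50.6% of the list. The share of strong peaks at Lpl was thus near that of all peaks, while their number and the scores of the strongest, given below, were at the upper end of the list.

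The highest score lay at the start of the gene. The peak from 71403726 to 71404500, whose interval spans the rounded Lpl start, had a score of 253, a second value of 10 and a width of 775 bp. Of all 34534 peaks, 44 scored higher, and 253 was 19.5 times the list's median. Among the 129 listed peaks of the same width, with a median score of 113, only 1 scored higher. Immediately upstream of it lay a pair of weak peaks. The peak from 71403276 to 71403500 scored 11, and the one from 71402901 to 71403250 scored 14. The highest score near the Lpl start was thus in 1 wide peak, with low-scoring ones beside it on the upstream side.

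The next strongest member lay 13.8 kb upstream of the Lpl start, from 71389776 to 71390675. It was the widest member, at 900 bp, with a score of 207 and a second value of 7. In the list, 127 peaks scored higher, 10 of them among the 47 peaks that share its width, whose median score was 118. It closed a run of wide peaks. The peak from 71388751 to 71389425 scored 43 over 675 bp, and the peak from 71384576 to 71385225 scored 47 over 650 bp. Between these lay a peak of 500 bp with a score of 29 and one of 225 bp with a score of 13. The scores of 43 and 47 were low for their widths, at 0.497 and 0.566 of the median for peaks equally wide. This stretch therefore held both a peak scoring well above others of its width and wide peaks scoring below them.

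A second group of strong peaks lay farther upstream, where 3 fell within 10.1 kb. The peak from 71359101 to 71359675, 44.6 kb upstream of Lpl, was the strongest of these, with a score of 92, a second value of 4 and a width of 575 bp. The peak from 71361101 to 71361650, at 42.6 kb, scored 61 over 550 bp with a second value of 5. The peak from 71351601 to 71352125, at 52.1 kb, scored 56 over 525 bp with a second value of 3, just above the threshold for a strong peak. All 3 scored above the median for their widths, by 1.51, 1.13 and 1.24 times. For the peaks of 550 and 525 bp this followed from the threshold of 55, since those medians were 54 and 45. Of all strong peaks in the list, 74.6% scored above the median for their width. The highest score among members under the threshold was 47, so no member lay between 47 and 56.

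**Figure D1:**
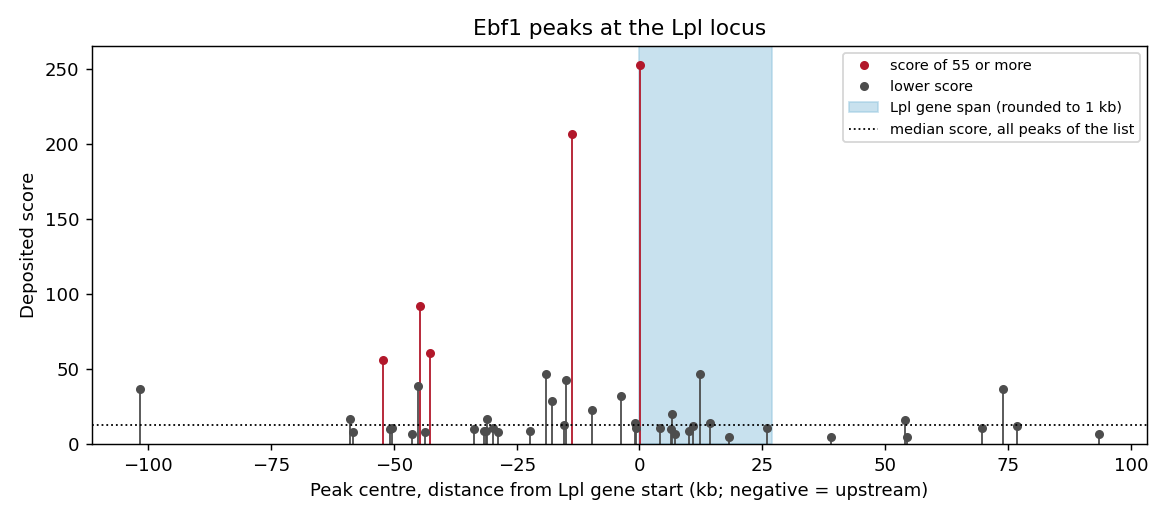
Deposited score of each of the 45 Ebf1 peaks (vertical axis) by the distance of its centre from the Lpl start in kb (horizontal axis), with strong peaks in red, the gene span shaded and the list's median score dotted. The scores of 253 at the gene start and 207 at 13.8 kb upstream stand above all others, a group of 3 strong peaks lies 42.6 to 52.1 kb upstream, and the rest of the gene and the downstream side hold no strong peak.

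Peaks were spread unevenly around the gene. Upstream of the start, 27 peaks filled 104 kb at 2.60 peaks per 10 kb, and 26 of them lay within 60 kb of Lpl. The gene span held 11 peaks at 4.07 per 10 kb, the peak at the start included, since its centre fell 0.113 kb past the rounded start. Downstream, 7 peaks were listed over 69 kb, or 1.01 per 10 kb. Of these 3 parts the gene span had the most peaks per 10 kb and the downstream side the fewest, while 4 of the 5 strong peaks lay upstream. The upstream figure includes 42.25 kb without a peak. In the 20 kb next to the gene 9 peaks were listed, and 10 from 40 to 60 kb upstream, against 11 in the 27 kb of the gene. The gene was thus not denser in peaks than those upstream segments.

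Upstream peaks differed in score from segment to segment. The 9 peaks in the 20 kb next to the gene had a median score of 29, and 8 of them reached the list's median. The 7 peaks from 20 to 40 kb upstream scored 8 to 17, with a median of 9, and only 1 reached it. The 10 peaks from 40 to 60 kb scored 7 to 92, with a median of 14. Past these, the first 42.3 kb toward the far edge held no peak, and the outermost member, from 71302151 to 71302625, scored 37 at 102 kb upstream. Strong peaks therefore sat in upstream segments on either side of one with weak peaks only.

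Within the gene, all 10 peaks past the one at the start were under the strong threshold, with scores of 5 to 47 and a median of 11. The highest of these, from 71415901 to 71416575, lay 12.2 kb into Lpl and had a score of 47, a second value of 8 and a width of 675 bp. That score was exceeded by 12.4% of the list, and it was 0.543 of the median for its width. Cut into stretches of 9 kb, the gene span held 5 peaks in the stretch nearest the start, 4 in the middle and 2 in the last. The peak nearest the gene end, from 71429751 to 71430075, scored 11. Peaks in the gene were thus fewer toward its end, and none but the one at the start was strong.

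Downstream of Lpl, scores ran from 5 to 37. The highest was in the peak from 71477701 to 71478375, which scored 37 over 675 bp, or 0.428 of the median for its width. The outermost member on this side, from 71497376 to 71497600, scored 7. Downstream neighbours were separated by up to 16.5 kb, against a largest separation of 7.53 kb inside the gene.

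At the edges of the region, the nearest peak outside on the upstream side lay 68.5 kb away and scored 39, beside the score of 37 of the first member. On the downstream side the first peak outside lay 16.6 kb from the edge and scored 6, beside 7 for the last member. The next 100 kb upstream held 2 peaks, neither of them strong, while the next 100 kb downstream held 12 peaks, of which 5 were strong. The highest of those 12, from 71516826 to 71517675, scored 140 and lay 113 kb past the Lpl start. More strong peaks therefore lie beyond the downstream edge, and a joining distance of 25 kb, described below, links them to the peaks at Lpl.

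Widths of the members resembled those of the list. The median width was 300 bp at Lpl and 300 bp in the list, and the upper quartile was 475 bp at Lpl and 425 bp in the list. The narrowest width, 200 bp, was found in 7 members (15.6%), against 20.3% of the list. Across the 45 members, Spearman's rho between score and width was 0.904, and across all listed peaks it was 0.925. These points share 1 library and lie next to each other, and the score may follow width through the calling, so rho is a description. Set against peaks of the same width, 22 members (48.9%) scored above the median, against 43.8% of the list. Upstream of Lpl this held for 17 of 27 peaks, in the gene span for 4 of 11 and downstream for 1 of 7.

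**Figure D2:**
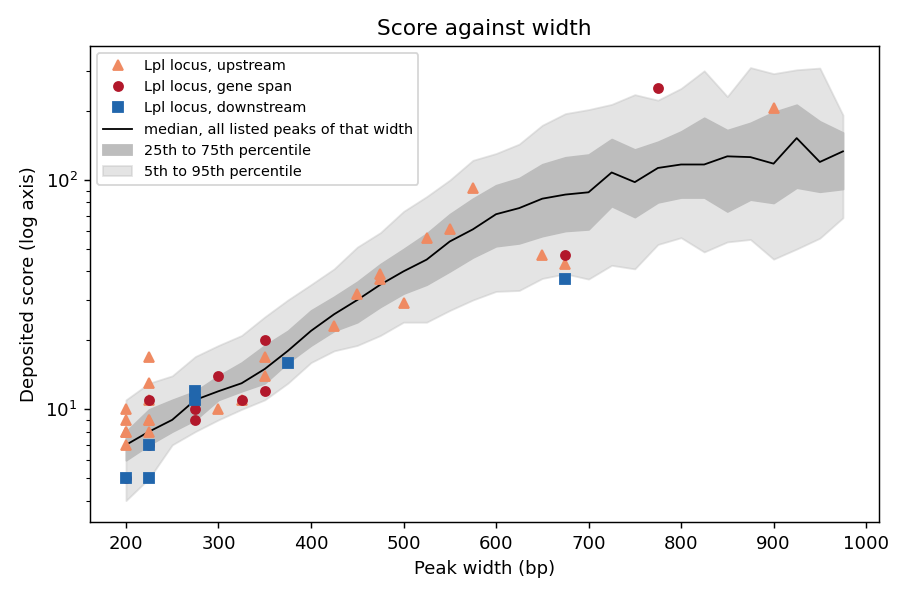
Deposited score on a log axis against peak width in bp for the 45 peaks at Lpl, marked by their place relative to the gene, over the median (line), the quartiles (dark band) and the 5th to 95th percentiles (light band) of all listed peaks of each width. The peak at the gene start, with a score of 253 at 775 bp, lies above the light band, and 4 peaks of 650 to 675 bp with scores of 37 to 47 lie below the dark band.

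The second value was higher at Lpl than over the list, a difference that was not tested. Whether this column reflects the Ebf1 library, the whole cell extract or something else is not stated in the sources used, so a high second value cannot be read as Ebf1 binding. It averaged 2.44 at Lpl and 1.52 in the list, with a median of 2 at Lpl and 1 in the list. A second value of 5 or more was found in 7 members (15.6%), against 5.47% of the list. It exceeded the median for the same width in 22 members (48.9%), against 32.1% of the list. Its level was highest in the gene span. There it averaged 4.0 and exceeded that median in 8 of 11 peaks, against an average of 2.15 and 13 of 27 peaks upstream and an average of 1.14 and 1 of 7 peaks downstream. The rest of chromosome 8 had an average of 1.69, with 35.4% of its peaks above the median for their width. Some regions nearer by or more alike had levels close to that at Lpl or above it, and others had lower averages. In the 500 kb just downstream, the second value averaged 2.31 and exceeded the median for the same width in 13 of 26 peaks. The cluster with the most peaks, on chromosome 2 from 176889926 to 177096100, averaged 2.61, with 58.6% of peaks above that median, and the cluster on chromosome 5 from 136148751 to 136219300 averaged 4.08, with 91.7%. Lower averages were found in the 500 kb just upstream, at 1.21 with 6 of 19 peaks above that median. The cluster of 53 peaks on chromosome X from 92119251 to 92175300 averaged 1.68, with 47.2%. The cluster of 37 members at Lpl, defined below, averaged 2.68. Among the other clusters highest in peaks, strong peaks or summed score, the lowest average was that on chromosome X. The next lowest was 2.24. Second values of the size seen at Lpl were thus also found in other clusters with many or strong peaks.

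The peaks within Lpl under the strong threshold had raised second values too. Without the peak at the start, the other 10 in the gene span still averaged 3.40. In 6 of these 10 the second value was 3 or more, as in 21.1% of the list. The peak from 71408151 to 71408375 had a second value of 4 with a score of 11, and none of the 3892 listed peaks of its width had a higher second value, although 89 of them, itself included, had 4. The same held for the peak from 71418226 to 71418525, with a second value of 5 and a score of 14, and for the peak from 71422026 to 71422225, with a second value of 3 and a score of 5. At the widths of these, 31 of 2040 and 352 of 7001 listed peaks shared the highest value. These 3 of 45 members lay within the gene, and 1.96% of the list had the highest second value of its width.

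Scores in the gene were low for peaks with such second values. Listed peaks with a second value of 4 had a median score of 31 and a lowest score of 7, and those with 5 had a median of 44 and a lowest score of 9. Of the 985 listed peaks with a second value of 5, 20 scored below the member from 71414651 to 71415000, which had a score of 12. The score of 5 in the peak from 71422026 to 71422225 was the lowest of any listed peak with a second value of 3. Among listed peaks of any width with the same second value, such gene-body peaks therefore lay near the lower edge. The lowest listed score was higher at a second value of 5 than at 3 or 4. The peak at the Lpl start and the peak 13.8 kb upstream lay at the other side, since 30 of the 32 peaks with a second value of 10 and 248 of the 258 with a second value of 7 scored lower than these.

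**Figure D3:**
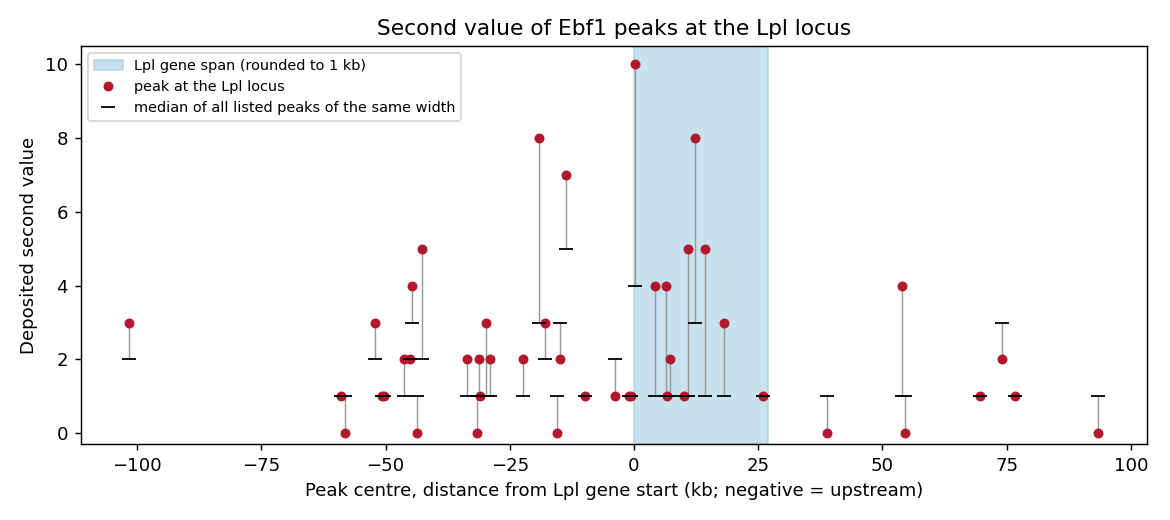
Deposited second value of the 45 Ebf1 peaks (red points) by the distance of the centre from the Lpl start in kb, joined to the median of all listed peaks of the same width (black dashes), with the gene span shaded. In the shaded gene span 8 of 11 points lie above their dash, against 1 of 7 past the gene end.

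Members lay close together. Neighbouring centres were a median of 2019 bp apart at Lpl, against 21831 bp over the whole list, as the number of peaks in the region implies. Among the 44 pairs of neighbours, 4 were separated by 25 bp, the smallest separation in the list and the step of its position grid. That is 9.09% of neighbouring pairs, against 0.536% in the list. These shares were not matched for the density of peaks, which was higher at Lpl. The share was 5.26% in the 500 kb upstream of the region and 3.85% in the 500 kb downstream, from 1 such pair in each. In 3 of the 4 pairs at Lpl both peaks were under the strong threshold. The pair at the far upstream group joined the peak with a score of 92 to one from 71358601 to 71359075 with a score of 39. Another lay upstream of the strong peak at 13.8 kb, a further pair just before the gene start, and the last within the gene, 6.70 kb from its start.

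A chain of peaks in which each centre was at most 12.5 kb from its neighbour held 37 members. This cluster was 85.2 kb long, with its first centre 58.9 kb upstream of Lpl and its last peak inside the gene. The other 8 members were the outermost upstream peak and the 7 downstream of the gene. Of the 6338 such clusters of 2 or more peaks on placed chromosomes, 4 held more peaks and 2 held more strong peaks, with 6 each. No other cluster had as many of both. The rank depends on the joining distance. At 5 kb the cluster around the Lpl start had 13 peaks and 1 strong peak, while 8 clusters held more peaks and 192 clusters held more strong peaks. At that distance 1 other cluster had at least as many of both. At 25 kb it took in the strong peaks past the downstream edge and had 56 peaks and 10 strong ones, while 3 clusters held more peaks and none held more strong peaks. The clusters with the most strong peaks held fewer peaks in all. The one on chromosome 8 from 119871651 to 119912825 had 6 strong peaks among 9, with a median score of 64, and the one on chromosome 5 from 136148751 to 136219300 had 6 among 12, with a median score of 53. The cluster at Lpl had a median score of 12, against 13 in the list. Of its 37 peaks, 13.5% were strong, against 10.2% of the list. The larger clusters had no strong peak. The cluster at Lpl thus held many peaks, in a mix of scores near that of the list.

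The region was also set beside windows of fixed size. Among 8466 windows of 200 kb that held a peak, laid end to end on placed chromosomes with the Lpl region as 1 of them, 5 held more than its 45 peaks, and none of those 5 had a strong peak. In 10 windows there were more than its 5 strong peaks. None had a summed score above its 1330, where the median window had 48. That sum came from 16.4 kb of peaks with a mean score of 29.6, against 24.2 in the list. The 2 strongest peaks gave 34.6% of it, and the sum was 1077 without the peak at the gene start. These windows were laid so that the region filled 1 of them exactly, while other dense regions may be cut by a border. In windows centred on each of the 34189 placed peaks instead, 270 held more peaks, 264 of them centred on peaks outside the region. More strong peaks were found in 217, of which 207 were centred outside it, and a higher summed score in 14, of which 5 were. The nearest 500 kb upstream of the region held 19 peaks, or 0.380 per 10 kb, and the nearest 500 kb downstream held 26, or 0.520 per 10 kb, against 2.25 per 10 kb at Lpl.

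**Figure D4:**
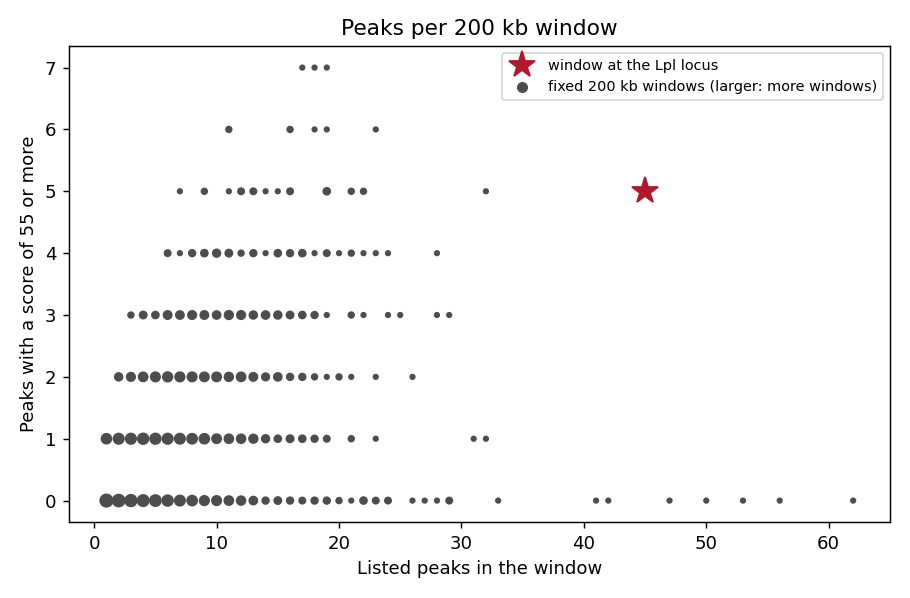
Number of listed peaks (horizontal axis) and of strong peaks (vertical axis) in each fixed 200 kb window, with the window at Lpl as a red star and larger dots standing for more windows. The 5 windows to the right of the star hold no strong peak, and no other window has at least as many of both.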

How the data were processed

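Chromatin from the Ebf1 library was used here as a deposited peak list without a header, 1 line per peak. Per the submitters' processing notes, SAMtools was used and positions refer to mm9. Which aligner and peak caller made the list, with what threshold and with what use of the whole cell extract, is not given in the sources used. The 2 scores deposited per peak, the authors' own values, have no stated meaning, are not treated as read counts, and only describe and rank peaks within this list. Per the labels' protocols, ligation products of 275 to 700 bp were gel purified and given 18 PCR cycles. The depth is unknown.

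Every start lay 1 base past a multiple of 25 and every end on such a multiple, so positions were read as 1-based and width as end minus start plus 1. Peaks were placed by their centre. Clusters and windows used chromosomes without unplaced sequences. Described singly are the strong members, those nearest the gene start and end, the widest, the outermost and the one with the highest second value, and others were added after their values were seen. The members, thresholds and rules were chosen with earlier results of these data known. Cluster counts and counts in windows centred on each peak were checked on simulated positions, while counts in windows laid end to end were not. No promoter sequence of Lpl was used here, and genes of the lipoprotein lipase pathway were not placed, since no mm9 annotation was used. Python 3.11.15, numpy 2.4.6, pandas 2.3.3 and matplotlib 3.10.9 were used.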

Additional observations from a re-analysis of the deposited data

How the results depend on the processing

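Of 22 alternative values, 11 stayed within 1.5 times the reported value and 11 moved further. None has a test, and a change of sign could not occur. The region held 45 peaks as reported, 21 when only peaks at or above the median score were kept and 5 when only strong peaks were kept, both by construction. Strong peaks numbered 3 when strong meant a score of 84 or more, near the 95th percentile, 13 when it meant 26 or more, near the 75th percentile, and 10 in a 400 kb region, which takes in the strong peaks past the downstream edge. The summed score was 2028 in that wider region. The cluster of 37 peaks was cut to 13 at a joining distance of 5 kb and grew to 56 at 25 kb. In windows centred on every peak, 0.790% exceeded the region in peaks, 0.635% in strong peaks and 0.0409% in summed score. In windows laid end to end, with the Lpl region filling 1 exactly and other dense regions perhaps cut, these were 0.0591%, 0.118% and 0%. Widening or narrowing the gene span by 1 kb at each end gave 13 and 10 peaks in place of 11. The Lpl promoter sequence was planned and not analysed here. With a single library, none could be left out. No paired analysis was possible because values of 1 library alone were analysed. Depth and replicate spread are unknown, so how many weak peaks another culture would give cannot be stated.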
